A study of Mus musculus with 5 samples.

Results

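Clustered protocadherins are cell surface adhesion proteins encoded by tandem arrays of genes on mouse chromosome 18, in an alpha, a beta and a gamma cluster. Each alpha and gamma mRNA begins with its own large variable exon, driven by its own promoter, and is spliced to constant exons shared by the cluster, whereas each beta gene is a unit with no shared exon. Neurons choose among these promoters and use the resulting combination of proteins to tell their own branches from those of other cells, and binding of CTCF and cohesin at the promoters and at distant enhancers is known to take part in the choice. H3K27me3, the mark that Polycomb Repressive Complex 2 (PRC2) places on histone H3, is associated with silenced genes and often spreads from CpG islands over broad domains.

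Members were taken as all protein-coding genes of chromosome 18 in the GENCODE vM1 annotation (mm9, NCBIM37) whose symbol begins with Pcdha, Pcdhb, Pcdhga, Pcdhgb or Pcdhgc followed by a number or the letter c. This gave 24 of 22350 protein-coding genes on chromosomes 1 to 19 and X, of which 2 were in the alpha, 21 in the beta and 1 in the gamma cluster. The annotation joins most alpha transcripts in a single entry named Pcdha11 (10 transcripts, each with a start of its own), lists Pcdha3 apart, and joins the gamma transcripts in an entry named Pcdhgc5 (10 transcripts, 10 starts). A RefSeq gene table on another build lists 14 alpha, 22 beta and 21 gamma genes. Alpha and gamma promoters were therefore followed by transcript start as well as by gene, which gave 46 distinct starts (11 alpha, 25 beta and 10 gamma), named as the annotation names the transcripts. For alpha and gamma these are fewer than the RefSeq genes, so that some promoters are not represented. Nor is each start a promoter of its own. Pcdha11-209 and Pcdha11-210 have first exons that end at the same base, and Pcdhb22-201 and Pcdhb22-202 start a few bases apart. Counts of starts thus count some promoters more than once. C-type members other than the entry called Pcdhgc5 (Pcdhac1, Pcdhac2, Pcdhgc3 and Pcdhgc4) carry no name of their own in it, and no value is given for them by name.

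H3K27me3 was mapped by ChIP-Seq in mouse embryonic fibroblasts (MEFs) derived from an embryo with a floxed Eed gene, which encodes a PRC2 subunit. The labels name Cre treatment for the EEDnull line alone, so that the 3 lines compared here shared the floxed allele. Lentivirus, in a vector with an EF1a promoter and puromycin selection, was used to express H3.3 K27M (methionine at lysine 27, the oncohistone of diffuse midline glioma), human EZHIP (a PRC2 inhibitor of PFA ependymoma) or H3.3 K27R (arginine at the same residue), and the K27R line served as the reference. Each group had 1 library, and 3 of the 5 libraries of the series were used. The parental Control with the floxed allele and the EEDnull clone were not analysed here. Whether the transduced lines were pools or clones is not given in the sources used here.

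The values were lists of enriched intervals on a grid of 200 bp bins, with 12845 intervals for K27R, 3736 for K27M and 4992 for EZHIP. They carried no read counts, so that sequencing depth was unknown, and with no replicates no difference could be tested against replicate spread. A start outside an interval was one where the caller drew no interval, which is not the same as absence of the mark. The libraries were made from bulk cells, in which fewer marked cells or alleles and less of the mark on each cannot be told apart. In the K27R list, the start of 1 of 12 fibroblast marker genes (Pdgfra) and of 6 of 7 neural marker genes lay in an interval. The share over all protein-coding genes was 30.1%. All of these marker starts lay in K27M and EZHIP intervals too, where 21.9% of all K27R-marked starts were kept in both. These lists do not measure expression, and Sox1 of the neural list was not matched in the annotation.

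K27R intervals lay over most alpha and beta protocadherins, and the K27M and EZHIP lists each held a single interval in the whole locus, at the last alpha start. The start sites of 20 of 24 members (83.3%) lay in K27R intervals, where the background over all protein-coding genes was 30.1%. No member start lay in a K27M interval (background 9.02%) and none lay in an EZHIP interval (background 7.73%). By transcript, 32 of 46 starts lay in K27R intervals (background 24.5% of 69930 distinct starts), and the same single start, of the alpha transcript Pcdha11-202, lay in a K27M interval (background 6.93%) and in an EZHIP interval (background 5.87%). Because neighbouring starts share intervals, the 32 marked starts came from 8 K27R intervals and are not independent observations.

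**Figure D1:**
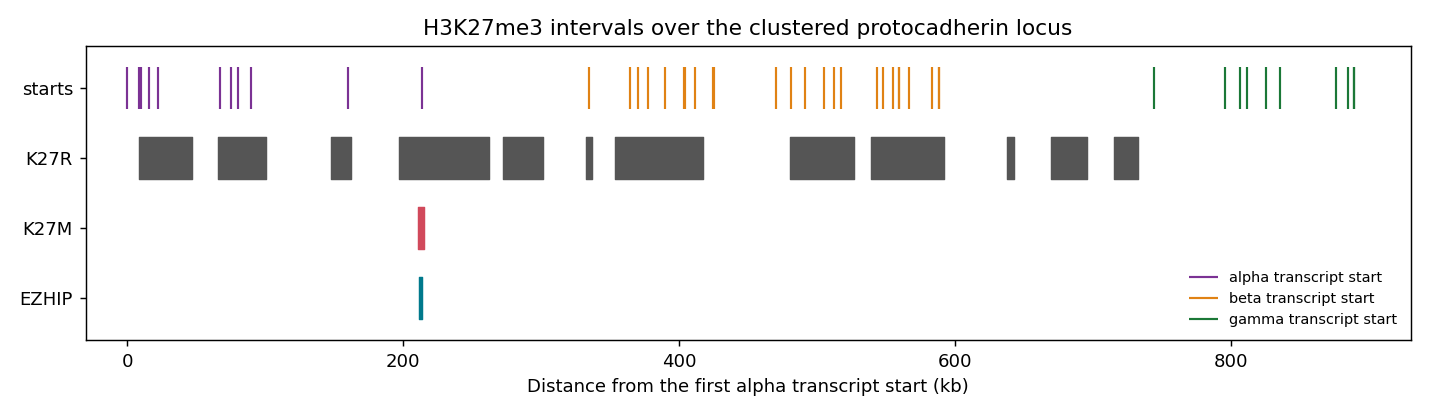
Map of the locus with transcript starts of the alpha, beta and gamma clusters (ticks) above the intervals of the K27R, K27M and EZHIP lists (bars, to scale), against the distance in kb from the first alpha start. K27R has 12 intervals over the alpha and beta clusters and the stretches beside them and none over gamma as annotated. K27M and EZHIP each have 1 interval, at the last alpha start.

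Measured by length, K27R intervals covered 397 kb of the 912 kb from the first alpha to the last gamma base (37089939 to 38001527), or 43.6%. On the 19 autosomes K27R intervals covered 20.1%. The K27M list covered 4.40 kb of the locus (0.483%, against 1.72% of the autosomes) and the EZHIP list 2.20 kb (0.241%, against 1.46%). The 12 K27R intervals had widths of 4.40 to 65.0 kb with a median of 31.5 kb. The shortest gap between them was 10.4 kb, so that the locus was drawn as separate blocks rather than as a single domain.

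As annotated here, the gamma cluster stood apart from the other clusters in the K27R list itself. K27R intervals covered 57.4% of the alpha cluster and 64.4% of the beta cluster, and 0 bp of the 168 kb from the first gamma start to the end of the gamma constant exons. The stretch between the alpha and beta clusters was 46.0% covered and the stretch between beta and gamma 32.1%. None of these differences had a replicate check, and with no K27R interval in the gamma stretch no loss of a call could be seen there. The gamma stretch was taken from the first start of the Pcdhgc5 entry, and a K27R interval ends 11.8 kb before that start. Gamma exons missing from the entry and lying before it would not be counted.

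In the alpha cluster, 10 of 11 transcript starts lay in K27R intervals, at a median of 8.09 kb from the nearest edge (range 0.572 to 16.4 kb). The exception was the first start, Pcdha11-204 at 37089939, which is also the gene start of the Pcdha11 entry and lay 8.46 kb outside the nearest K27R interval. The next start, Pcdha11-209 at 37098972, lay 0.572 kb inside that interval and was the nearest of the marked starts to an edge. All 10 marked starts had their first exon wholly inside K27R intervals.

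The marked alpha starts lay in 4 K27R blocks. The first block, from 37098401 to 37136800 (38.4 kb), held 4 starts, among them that of Pcdha3 (37105801 to 37108685), the only alpha member with an entry of its own. Pcdha3 was 100% covered in K27R and 0% in K27M and EZHIP, whose nearest intervals were 195 kb and 196 kb away. The second block, from 37156201 to 37190400 (34.2 kb), held 4 starts, Pcdha11-207, Pcdha11-206, Pcdha11-205 and Pcdha11-203. The third block, from 37237401 to 37252400 (15.0 kb), held the start of Pcdha11-201, 2.61 kb from its edge.

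The fourth block, from 37287201 to 37352200 (65.0 kb), was the widest of the locus and held the last alpha start, Pcdha11-202 at 37303623, as well as the 3 alpha constant exons. It was the only block in which a K27M or EZHIP interval remained. The K27M interval ran from 37300801 to 37305200, and its 4.40 kb made up 6.77% of the K27R block. The EZHIP interval ran from 37301801 to 37304000, wholly inside the K27M interval, and its 2.20 kb made up 3.38% of the block. Both were narrower than the median interval of their lists, which was 6.80 kb in K27M and 4.40 kb in EZHIP.

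Both residual intervals reached farther upstream of the Pcdha11-202 start than into the gene. The K27M interval began 2.82 kb upstream and ended 1.58 kb into the first exon, covering 61.6% of it. The EZHIP interval began 1.82 kb upstream and ended 0.378 kb into the exon, covering 14.8%. The EZHIP interval thus ended with the bin after the one that holds the start. The constant exons, 59, 89 and 2712 bp long and shared by 9 of the 10 Pcdha11 transcripts, were 100% covered in K27R and 0% covered in both inhibitor lists.

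**Figure D2:**
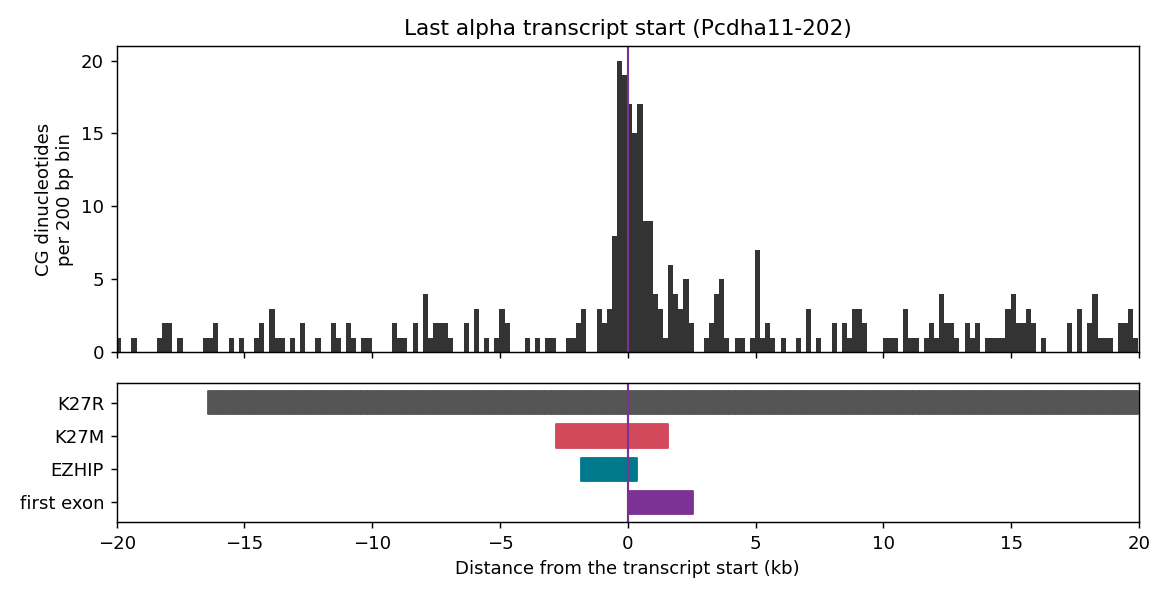
CG dinucleotides per 200 bp bin (upper panel) and the intervals of each list with the first exon of the transcript (lower panel), against the distance in kb from the Pcdha11-202 start. The K27R interval runs past the right edge of the plot, the K27M interval spans 4.40 kb and the EZHIP interval 2.20 kb around the peak of CG density, which reaches 20 per bin.

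By gene body, 21 of 24 members overlapped a K27R interval by at least 1 bp (87.5%, background 36.1%). The member counted here and not by start site was the Pcdha11 entry, whose 257373 bp were 57.4% covered although its start was outside. The same entry was the 1 member that overlapped a K27M interval (background 11.5%), with 1.71% of its length, and the 1 member that overlapped an EZHIP interval (background 10.6%), with 0.855%. Since Pcdha11 spans the whole alpha cluster, this overlap is that of the single interval at the last alpha start. First exons were wholly covered in K27R in 20 of 24 members (background 29.9%), and no first exon was partly covered. None was wholly covered in K27M (background 8.82%) or EZHIP (background 7.58%), where the first exon of the Pcdha11 entry is that of its first start and not of its last.

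In the beta cluster, 19 of 21 genes had their start in a K27R interval and were covered over 100% of their length. The first, Pcdhb1 (37424652 to 37427108), lay in a K27R interval of 4.40 kb, from 37422801 to 37427200, that was little longer than the gene. Pcdhb2 to Pcdhb7 shared an interval of 64.0 kb, from 37443401 to 37507400. Pcdhb10 to Pcdhb14 shared an interval of 46.6 kb, from 37570001 to 37616600. Pcdhb15 to Pcdhb22, the last of the cluster, shared an interval of 52.6 kb, from 37629201 to 37681800, which also held the pseudogene Pcdhb20, whose start was inside as well.

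The 2 beta genes outside K27R intervals were the neighbours Pcdhb8 and Pcdhb9, in the longest gap between K27R blocks of the locus (62.6 kb, from 37507401 to 37570000). The Pcdhb8 start lay 7.33 kb past the end of the block that ended after Pcdhb7, and the Pcdhb9 start 9.49 kb before the block that began ahead of Pcdhb10. Pcdhb7 itself lay 6.04 kb inside its block and Pcdhb10 only 1.33 kb, the least of the marked beta starts. Pcdhb5 lay deepest, 27.4 kb from an edge. Allowing a distance of 5000 bp to an interval added no member.

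No beta start or body was within reach of a residual interval. The nearest K27M interval was 119 kb from Pcdhb1 and 373 kb from Pcdhb22, and the nearest EZHIP interval 121 kb and 374 kb. For every beta start the nearest interval in both lists was the one at the last alpha start. Of the 19 beta starts marked in K27R, 0 were kept in either list. Over all protein-coding genes with a start in K27R, 29.9% were kept in K27M, 25.6% in EZHIP and 21.9% in both, while 66.5% were in neither, as were all 20 marked members.

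None of the 10 gamma starts lay in an interval of any list. The first, Pcdhgc5-207 at 37833989, which is also the start of the Pcdhgc5 entry, lay 11.8 kb from the nearest K27R interval, and the distance over the 10 starts had a median of 98.1 kb and reached 154 kb. The last K27R interval before the cluster ran from 37804801 to 37822200, and the next one after the locus began at 38133001, 131 kb past the last gamma base. The gamma constant exons (59, 89 and 1971 bp) were covered by 0% in all 3 lists. The RefSeq table lists 21 gamma genes, more than the 10 starts annotated here. Gamma variable exons outside the Pcdhgc5 entry were not analysed here.

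The genes around the members were looked up by position, and those inside the locus were chosen after the intervals were seen. On the alpha side the nearest protein-coding gene, Gm6756, was outside all intervals, 18.1 kb from K27R. On the gamma side the nearest was Diap1, which encodes a formin that assembles actin filaments, and its start lay 37.9 kb from the nearest K27R interval, in no list. Between beta and gamma, the start of Taf7, which encodes a subunit of the general transcription factor TFIID, lay outside K27R by 0.943 kb, and that of Slc25a2 by 6.42 kb. The start of 3222401L13Rik, between Taf7 and the first gamma start, was inside a K27R interval, as was that of Gm10545 within the alpha cluster, and neither was in a K27M or EZHIP interval.

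K27R blocks were counted as well as genes, since several members share a block. Of the 12 K27R blocks of the locus, 1 held a K27M interval and the same 1 an EZHIP interval (8.33%), against 17.0% and 17.8% of 12093 autosomal K27R intervals. Among the 8135 autosomal intervals of the same range of widths (4.40 to 65.0 kb), the shares were 11.1% and 10.8%, close to that of the locus. The share was higher where such a block held a transcript start of a protein-coding gene, at 34.1% of 2189 blocks in K27M and 31.1% in EZHIP, and in the locus 1 of 9 such blocks kept an interval (11.1%). With 9 blocks this difference is a description of 1 locus in 1 library of each line.

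Protocadherins outside the clusters and Hox genes were compared as the most similar groups, the former for the protein and the latter for the tandem arrangement. Of 12 non-clustered protocadherin genes, 10 had their start in K27R (83.3%), the same share as the clustered members. In contrast to the clustered members, 7 of these 10 were kept in K27M (70.0%) and 4 in EZHIP (40.0%). The 4 kept in both lists were Pcdh1, on chromosome 18 as well, and Pcdh7, Pcdh8 and Pcdh15. Pcdh11x, in K27R and K27M and not in EZHIP, and Pcdh19, in K27R alone, are on chromosome X. The annotation had 40 Hox entries with 39 symbols, since Hoxa3 has 2 entries, both in no list. Of the 40 entries, 29 had their start in K27R (72.5%), and 22 of these were kept in K27M and 22 in EZHIP (75.9% each). Merging intervals up to 10000 bp apart raised the Hox starts in EZHIP from 22 to 26 and left those in K27M at 22. The groups differ in number of loci and annotation. CG content was not summarised here for the comparison groups, and the part of any of these in the difference was not tested.

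**Figure D3:**
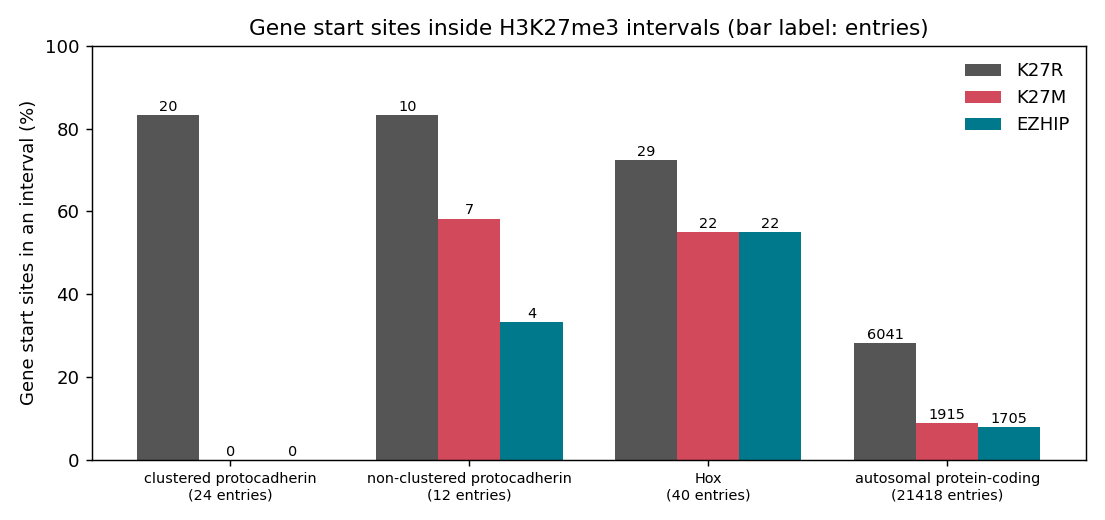
Share of gene start sites (%) inside intervals of the K27R, K27M and EZHIP lists for clustered protocadherins, non-clustered protocadherins, Hox genes and all autosomal protein-coding genes, with the number of gene entries in an interval above each bar and the number in the group under it. The clustered and the non-clustered group reach the same 83.3% in K27R, and only the clustered group is at 0 in both inhibitor lists. The non-clustered group includes Pcdh11x and Pcdh19 of chromosome X.

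Genes that act on or with clustered protocadherins were examined from a fixed list of 32, of which 31 were matched. Starts of 7 lay in K27R (22.6%), below the 30.1% of all protein-coding genes. Of these 7, 4 were in K27M and 3 in EZHIP, or 12.9% and 9.68% of the list, beside 9.02% and 7.73% of all genes. The 3 in every list were Ret, a receptor tyrosine kinase that associates with these proteins, Ptk2b, a kinase they restrain, and Celsr3, an atypical cadherin that acts in axon guidance. Smc1a, a cohesin subunit, was in K27R and K27M and not in EZHIP. Stag2, another cohesin subunit, Wiz, a zinc finger factor, and Dnmt3a, a de novo DNA methyltransferase, were in K27R alone. Ctcf was in no list, and neither were Smchd1, Setdb1 and Dnmt3b, chromatin factors known to act at the clusters. Smc1a and Stag2 are on chromosome X.

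CG content was then measured around each member start, a feature that the choice of members did not use and that the study related to where H3K27me3 remained. In the 1000 bp centred on the gene start, 0 of 24 members met the limits used here for a CpG-rich promoter (G+C of 50% or more, with CpG observed over expected greater than 0.6), where 44.2% of all protein-coding genes did. By transcript start, 4 of 46 did, 2 in alpha and 2 in gamma. The clusters differed in kind. Alpha starts had 31 to 89 CG dinucleotides with a median of 38, and the observed to expected ratio exceeded 0.6 at 11 of 11 of them, although G+C content (median 47.4%) kept 9 below the limits. Beta starts had 6 to 35 with a median of 17, and 0 of 25 exceeded the ratio. Gamma starts had 12 to 67 with a median of 36, and 6 of 10 exceeded it.

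The 1 start kept in both inhibitor lists had the highest CG number of the 46. Pcdha11-202 had 89 CG dinucleotides in 1000 bp, 67.3% G+C and an observed to expected ratio of 0.796. The next alpha start in CG number, Pcdha11-201, had 50 CG dinucleotides and 57.4% G+C, was CpG-rich by the same limits, and lay in a K27R interval and in no inhibitor interval. The CpG-rich gamma starts, Pcdhgc5-208 with 67 CG dinucleotides and Pcdhgc5-205 with 42, lay in no interval of any list. Starts with many CG dinucleotides were thus found both inside and outside K27R intervals.

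**Figure D4:**
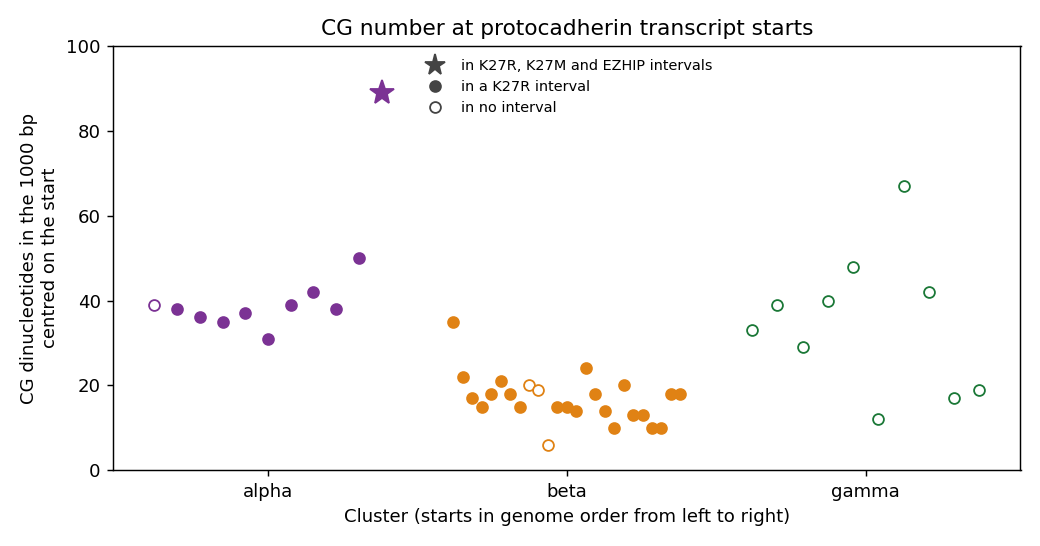
CG dinucleotides in the 1000 bp centred on each of the 46 member transcript starts, by cluster and in genome order. Stars are starts in intervals of all 3 lists, filled circles starts in K27R only and open circles starts in no interval. The only star, at 89, is the last alpha start, and all gamma starts are open.

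Across the autosomes, the share of K27R-marked genes kept in the inhibitor lists rose with CG number at the start. It was 8.60% in K27M and 8.48% in EZHIP for 2466 genes with 0 to 19 CG dinucleotides per 1000 bp, 27.1% and 24.6% for 1106 genes with 20 to 39, 48.0% and 43.6% for 942 genes with 40 to 59, and 66.1% and 57.1% for 778 genes with at least 80. Of the marked members, 14 had 0 to 19 and 6 had 20 to 39, and 0 were kept in either class. By transcript, 12 marked starts had 20 to 39 and 2 had 40 to 59, with 0 kept, and the 1 marked start with at least 80 was kept in both lists. The 14 were all beta genes, in the class with the lowest share kept genome-wide, and Pcdha3 was among the 6.

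The same measure was taken over the whole marked sequence in 200 bp bins, since CG dinucleotides of these genes also lie within the variable exons. K27R intervals of the locus held 120 bins with at least 10 CG dinucleotides, in 10 of the 12 blocks. Of these bins, 85 (70.8%) overlapped a first exon of a member as annotated here. A K27M interval covered 5 of the 120 (4.17%) and an EZHIP interval 4 (3.33%). On the autosomes, 46.8% of 32114 such bins were kept in K27M and 39.3% in EZHIP. Neighbouring bins belong to the same interval, so that bins are not independent of each other.

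All of the kept CG-dense bins lay in the block of the last alpha start, which had 5 such bins in its 65.0 kb. The first alpha block had 37 in 38.4 kb, with up to 21 CG dinucleotides per bin, the second had 22, and the last beta block had 23, with up to 25 per bin, and 0 of these were kept in either list. Among bins with at least 15 CG dinucleotides, 5 of 32 at the locus were kept in K27M (15.6%) and 4 in EZHIP (12.5%), against 62.7% and 52.6% on the autosomes.

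**Figure D5:**
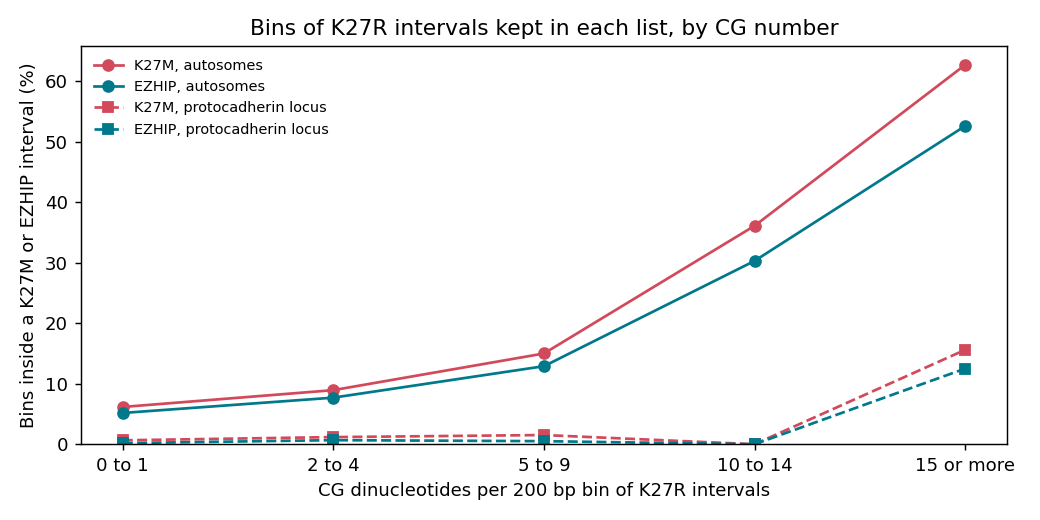
Share of 200 bp bins of K27R intervals (%) that lie in a K27M or EZHIP interval, by the number of CG dinucleotides in the bin, on the autosomes (solid lines) and at the protocadherin locus (dashed lines). On the autosomes the share rises from 6.16 to 62.7% in K27M and from 5.17 to 52.6% in EZHIP, and at the locus it stays at or below 15.6%.

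Most CG-dense bins of the locus stood alone or in short runs, and runs were compared for that reason. The 120 bins formed 57 runs of consecutive bins, of which 54 were shorter than 5 bins, and 0 of these 54 were kept. On the autosomes, single bins were kept in 23.9% in K27M and 19.4% in EZHIP, runs of 2 in 38.7% and 33.9%, and runs of at least 5 in 72.9% and 62.3%. The locus had 3 runs of at least 5 bins. The one from 37303201 to 37304200 lay over the Pcdha11-202 start and counted as kept in both lists, with 5 bins in the K27M interval and 4 in the EZHIP interval. A run thus counted as kept without being covered whole. Longer runs hold more bins that can meet an interval, so that shares of runs and shares of bins are unlike measures. A run of 1000 bp, from 37181001 to 37182000 within the first exon of Pcdha11-203, was in neither. The longest, 1200 bp from 37121201 to 37122400, lay in the first alpha block and was in neither list as well. It overlapped no exon of the protein-coding and protocadherin genes of the annotation, and other exons were not looked up. The RefSeq table lists 14 alpha genes, more than the 11 alpha starts here. Whether this run lies in a variable exon missing from the entries used was not tested.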

How the data were processed

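The deposited files were lists of H3K27me3 intervals, 1 per library, giving chromosome, start and last base with no height, score or read count. Per the study's methods and the processing notes of the submitters, reads from MNase-digested chromatin were aligned with Bowtie 1.0.0 to mm9 and to a spike-in genome, and broad peaks were called with MOSAiCS-HMM under set limits of gap, size and threshold. For H3K27me3 the methods give 1 set of limits, with a gap limit of 10000 bp. Near Hox genes the EZHIP list held intervals no farther apart than that limit. Whether scaling entered the calls and which library served as their background is not given in the sources used here. Nor is it given whether the same background and limits were applied to each of the 3 lists. These points bear on every comparison between the lists. The caller's gap and size limits affect where blocks are joined and which short intervals appear.

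All interval edges lay on the 200 bp grid (0 off it) and inside the mm9 chromosomes, and positions are printed counting from 1. Starts, first exons and gene bodies came from GENCODE vM1, and CG counts from the NCBIM37 sequence. A start was called when it lay inside an interval. Counts are descriptions with no test, since each line had 1 library. Members and lists were chosen with earlier results of these data known. Named are the first and last member of each cluster, C-type members, members at the end of a run of like calls, members whose calls differ between inhibitor lists, those with the highest and lowest first exon cover, and the flanking genes. The CG-dense bins and runs were added after the intervals were seen. Interval tools were tested on simulated lists. Alternatives were a minimum width of 5000 bp, merging up to 10000 bp, a distance of 1000 or 5000 bp, shortened intervals, any transcript start, 50% cover and a window of 500 bp. Python 3.11.15, numpy 2.4.6, pandas 2.3.3 and pysam 0.24.0 were used. Sequence of the locus is not reported here.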

Additional observations from a re-analysis of the deposited data

How the results depend on the processing

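Of 285 values recomputed under other settings, 176 were 0 both times and say nothing of stability. Of the other 109, 87 stayed within 1.5 times the reported value and 22 did not, 12 of them main results, and many of these values repeat each other. Counting any annotated transcript start of a gene gave 1 member in K27M, 1 in EZHIP, and 1 kept in K27M, in EZHIP and in both, in place of 0, and this is the Pcdha11 entry with its last start. A minimum width of 5000 bp removed the residual interval of both lists, so that members overlapped fell from 1 to 0 and the covered length to 0 kb in K27M and in EZHIP. Requiring 50% of the gene gave 0 members in K27M and 0 in EZHIP. A window of 500 bp made 1 member CpG-rich in place of 0, the Pcdha11 entry at its gene start (51.8% G+C). Merging up to 10000 bp could join no K27R blocks of the locus, since the shortest gap between them was 10.4 kb. The gap limit given for the caller was of the same size, so that closer blocks could have been joined before. Values of the locus that stayed the same under merging therefore say nothing of stability, and those that are not 0 are among the 87. Members with a start in K27R numbered 19 to 21 over all settings, of which counting pseudogenes was chosen after the data were seen. Unknown depth and 1 library per line limit every count. The EZHIP edge lies 378 bp past the Pcdha11-202 start, so that the call there turns on 2 bins. No paired analysis was possible because no result comes from a test and each group has 1 library, and for the same reason no library could be left out.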
